A study of Mus musculus with 26 samples.

Results

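The genes described here are 42 mouse genes of the cell division cycle, 17 that act in S phase, 23 that act in G2 or mitosis and 2 of G1. They were taken by symbol from a table of log2 TPM values, where TPM is a read abundance scaled for gene length and library size. Of the 42 genes, 40 had a row of their own among the 16397 rows used, each matched by its identifier to the same symbol in the mouse annotation. These were 16 of the S phase genes, all 23 of the G2 and mitosis genes, and the G1 cyclin Ccnd1. Pcna and Cdkn2a were not analysed here. All 40 passed the filter on low values (3 or more libraries with a TPM of 1 or more) in every comparison.

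The libraries came from tongues of male mice of the inbred CBA strain, in which 4-NQO, a chemical that damages DNA, serves to produce mouth cancer. Paraffin sections were stained with cresyl violet and cut by laser along a pathologist's map into epithelium and the stroma with muscle beneath it. Each compartment gave 13 libraries: 3 of normal tissue, 3 of hyperplasia (thickened epithelium), 4 of dysplasia (disordered epithelium) and 3 of tumor. Mice with normal tissue were 16 to 24 weeks old, those with hyperplasia 20 to 32, those with dysplasia 16 to 32 and those with tumor 28 to 32. The labels leave unstated whether mice with normal tissue received 4-NQO and which libraries share an animal, so p-values measure the spread between libraries and would be too small if regions shared an animal. No allele or transgene is named for any group.

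Cells that divide copy their DNA in S phase and separate the copies in mitosis. The MCM proteins form the helicase that opens DNA at replication origins, after Cdc6 and Cdt1 have loaded it, and ribonucleotide reductase and thymidylate synthase supply the nucleotides. Cyclins with their kinase Cdk1 then drive entry into mitosis, where Aurora kinases, Plk1, kinesins and checkpoint proteins build and inspect the spindle. Genes of the S phase group are classic targets of E2F factors, and many mitotic genes are bound by complexes that recognise a CHR element beside CCAAT boxes. In stratified epithelium such as that of the tongue, division is confined to the basal and nearby layers.

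The sequences before the starts of 4 genes are shown because the results below turn on these genes: Mcm5 and Rrm2 led the S phase genes in tumor epithelium, Cdc20 led the mitotic genes there, and Plk1 was the only one of the 40 to pass a test. Each is the 200 bases just before the start of the gene, taken from RefSeq on GRCm38.p6 and printed 5′ to 3′ on the strand of the gene. Capitals mark matches, on either strand, to E2F motifs (TTTCCCGC, TTTGGCGC or TTTCGCGC), CHR motifs (TTTGAA or TTCGAA) and the CCAAT box (CCAAT). The Mcm5 stretch is chr8:75109309-75109508 (plus strand), that of Rrm2 is chr12:24708054-24708253 (plus strand), that of Cdc20 is chr4:118437344-118437543 (minus strand) and that of Plk1 is chr7:122159235-122159434 (plus strand).
Mcm5: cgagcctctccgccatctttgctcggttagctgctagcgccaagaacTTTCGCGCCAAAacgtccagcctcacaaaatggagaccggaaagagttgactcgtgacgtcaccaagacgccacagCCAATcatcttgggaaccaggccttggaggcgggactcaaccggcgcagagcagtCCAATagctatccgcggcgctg
Rrm2: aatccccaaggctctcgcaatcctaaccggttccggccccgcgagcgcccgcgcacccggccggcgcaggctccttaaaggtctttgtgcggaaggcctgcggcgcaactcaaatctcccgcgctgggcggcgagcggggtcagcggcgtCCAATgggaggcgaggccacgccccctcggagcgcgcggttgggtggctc
Cdc20: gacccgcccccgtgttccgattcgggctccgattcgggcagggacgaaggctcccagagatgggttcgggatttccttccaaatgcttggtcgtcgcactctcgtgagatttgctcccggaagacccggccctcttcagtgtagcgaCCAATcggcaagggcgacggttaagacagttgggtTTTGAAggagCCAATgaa
Plk1: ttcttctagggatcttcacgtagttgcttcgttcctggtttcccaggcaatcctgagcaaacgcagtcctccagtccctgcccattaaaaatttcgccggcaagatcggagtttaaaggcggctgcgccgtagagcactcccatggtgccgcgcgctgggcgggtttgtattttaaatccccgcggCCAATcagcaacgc
Mcm5 held a pair of overlapping E2F matches, 149 and 153 bases before the start, and CCAAT boxes 22 and 77 bases before it. Cdc20 held a CHR match 18 bases before the start between CCAAT boxes at 8 and 53 bases. Rrm2 and Plk1 held only a CCAAT box in the bases printed, at 50 and 14 bases before the start. The wider Plk1 window, from 250 bases before the start to 50 after it, held a CHR match that the printed bases do not show.

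Promoter windows, from 250 bases before to 50 after the start, were given for 31 of the 40 genes, 13 of S phase and 18 of G2 and mitosis. An E2F match stood in 6 of the 13 S phase windows (Mcm3, Mcm5, Mcm6, Mcm7, Cdc6 and Cdt1) and in 1 of the 18 mitotic windows, that of Cdk1, against 2.12% of the 27025 genes with a window. A CHR match stood in 14 of the 18 mitotic windows and in 3 of the 13 S phase windows (Mcm2, Mcm7 and Cdc45), against 21.66% of genes. CCAAT boxes stood in 16 of 18 and 8 of 13, against 41.06% of genes. TTCGAA is its own reverse complement and the motifs can overlap, as in Mcm5. These are matches of letters and not measured binding.

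Most of the 40 genes were expressed at modest levels, and the sequencing depth behind the values is unknown. The TPM total over the 18676 rows given ran from 264081 to 696932 in epithelium libraries and from 179645 to 895312 in stroma libraries. The main fits used the values as given, so differences between libraries in that total remain in them. In epithelium the mean over the 13 libraries ran, on the log2(TPM + 1) scale, from 1.28 for Cdc6, which loads the helicase, to 5.18 for Top2a, the topoisomerase that untangles replicated chromosomes. Rrm1, the large subunit of ribonucleotide reductase, followed at 4.78 and Prc1, which bundles the spindle midzone, at 4.66. The mean of the S phase genes was 2.77 ± 0.38 (SD over 13 libraries) in epithelium and 2.62 ± 0.81 in stroma, and that of the G2 and mitosis genes was 3.45 ± 0.52 and 2.91 ± 0.97. Together the 40 genes took 0.0671% to 0.174% of the TPM outside 3 dominant genes named below in epithelium, and 0.0561% to 0.188% in stroma. Shares of TPM, here and below, are shares of the total over the rows given, which differs by library.

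Some libraries stood apart before any comparison. Of the TPM total over the rows given, Lars2, March6 and D17H6S53E together took 86.0% in hyperplasia stroma 1, 53.4% in dysplasia stroma 2 and 47.4% in normal stroma 1. Dysplasia epithelium 2, at 17.2%, was the highest of the epithelium libraries. Hyperplasia stroma 1 listed 9382 of 16397 genes and 17 of the 40 cell cycle genes at 0. Compartment markers matched the labels only in part. Differentiated keratinocyte markers averaged 6.67 to 10.2 in epithelium and 1.58 to 6.81 in stroma. These ranges overlapped, with tumor stroma 2 at 6.81 and dysplasia epithelium 4 at 6.67. The basal keratinocyte ranges overlapped more widely (5.31 to 7.43 and 2.47 to 6.70), and skeletal muscle markers reached 5.92 in an epithelium library. The mean of 156 olfactory receptor genes was taken as a measure of background, and whether any of them is expressed in these tissues was not tested. It was highest in hyperplasia stroma 2 (2.36), hyperplasia epithelium 2 (1.90), normal epithelium 3 (1.82) and tumor stroma 3 (1.67).

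**Figure D1:**
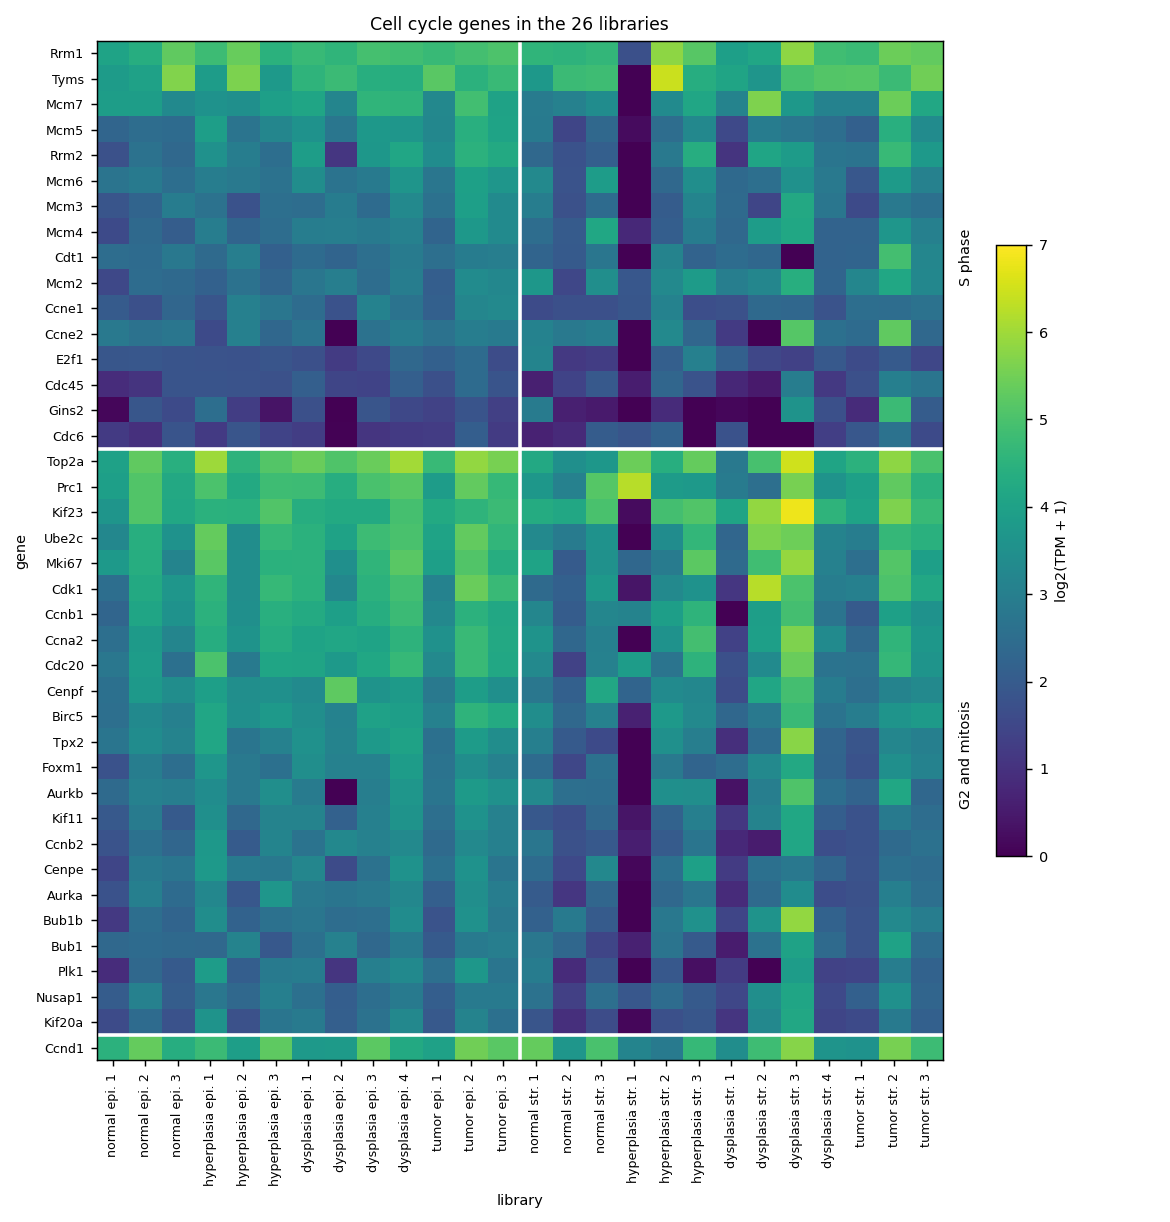
Colour gives log2(TPM + 1) of each of the 40 genes (rows, grouped as S phase, G2 and mitosis, and Ccnd1, and ordered by their epithelium mean) in the 26 libraries (columns, epithelium on the left). Normal epithelium 1 is low for most genes, and hyperplasia stroma 1 has 17 genes at 0.

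In epithelium, the cell cycle genes as a group had higher fitted levels than normal at all 3 lesion stages, but no single gene passed the test. The median log2 difference of the 40 genes from normal was 0.54 in hyperplasia, 0.58 in dysplasia and 0.74 in tumor, where all 14126 genes tested had medians of 0.09, 0.02 and 0.02. The difference was above 0 for 36, 33 and 39 of the 40 genes, against 57.9%, 51.5% and 51.6% of all genes. limma, with Benjamini-Hochberg adjustment across every gene tested, called 0 of the 40 at an adjusted p under 0.05 in each comparison, where it called 0.0354%, 0.467% and 0.0496% of all genes. At an unadjusted p under 0.05, 4, 8 and 10 of the 40 were higher and 0 lower, against 2.24%, 3.87% and 2.76% of all genes that were higher. An F test over the 4 stages called 0 of the 40 and 0.163% of all genes, and 3 of the 40 and 5.05% of all genes had an unadjusted p under 0.05. These comparisons share the 3 normal libraries, so they are not independent of each other. In bulk tissue, more dividing cells and more of this RNA per cell cannot be told apart.

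Markers of other cell types differed between the same groups of epithelium libraries. The mean of 9 macrophage markers was 0.97 ± 0.51 (SD) in normal epithelium, 1.88 ± 0.24 in hyperplasia, 2.19 ± 0.41 in dysplasia and 2.20 ± 0.42 in tumor, and ran from 0.63 to 1.56 in normal and from 1.58 to 2.68 in lesion libraries, with Adgre1 listed at 0 in 1 library. Differentiated keratinocyte markers (11) averaged 8.98 ± 0.56 in normal epithelium, 8.68 ± 1.32 in hyperplasia, 7.70 ± 1.14 in dysplasia and 8.51 ± 0.47 in tumor, and basal keratinocyte markers (11) averaged 6.10 ± 0.45, 6.24 ± 0.71, 6.73 ± 0.58 and 6.31 ± 0.89. Fibroblast markers (9) averaged 3.47 ± 0.38, 2.72 ± 0.51, 3.04 ± 0.43 and 4.14 ± 0.65. The part of these cell types in the cell cycle differences was not tested.

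**Figure D2:**
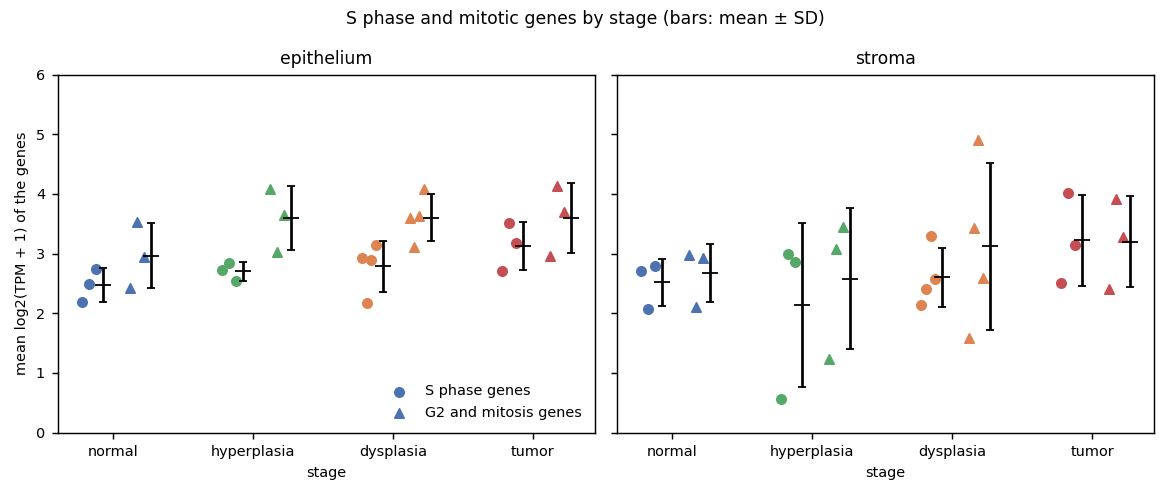
Points give, for each library, the mean log2(TPM + 1) of the 16 S phase genes (circles) and of the 23 G2 and mitosis genes (triangles) by stage in epithelium and stroma, with the mean and SD beside them. In epithelium the S phase mean goes from 2.47 in normal to 3.13 in tumor libraries, and the mitotic mean from 2.97 to 3.60.

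Among the S phase genes, Rrm2 and the helicase genes Mcm5, Mcm4 and Mcm3 had the largest differences in tumor epithelium, and the loading factors Cdc6 and Cdt1 were at 0.10 and 0.23. The median difference of the 16 genes was 0.22 in hyperplasia, 0.43 in dysplasia and 0.58 in tumor, with 13, 11 and 15 of the 16 above 0. Libraries of the lesion lay wholly above the normal ones for Mcm5 in hyperplasia, for Mcm2, Mcm4 and Mcm5 in dysplasia, and for Mcm5 and Rrm2 in tumor. Of all genes, 3.74%, 3.10% and 3.65% were separated in this way in the 3 comparisons.

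Mcm5, a helicase subunit, had the smallest p in tumor epithelium. Its log2(TPM + 1) was 2.30, 2.50 and 2.44 in normal libraries 1 to 3 and 3.92, 2.69 and 3.22 in hyperplasia. It was 3.57, 2.75, 3.73 and 3.68 in dysplasia libraries 1 to 4 and 3.23, 4.42 and 4.06 in tumors. Every lesion library lay above every normal one. The difference from normal was 0.95 ± 0.45 (SE) in hyperplasia, 1.06 ± 0.41 in dysplasia and 1.57 ± 0.45 in tumor, with limma adjusted p-values of 1.00, 0.383 and 0.311. The unadjusted p for tumor was 0.00218.

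Rrm2, the small subunit of ribonucleotide reductase whose level limits nucleotide supply, had the largest difference between tumor and normal epithelium of the 40 genes. Normal libraries held 1.73, 2.64 and 2.36 and hyperplasia libraries 3.53, 2.95 and 2.52. Dysplasia libraries held 3.89, 1.10, 3.70 and 4.14, and tumors 3.41, 4.51 and 4.26. All 3 tumors stood above all 3 normal libraries, and dysplasia 2 stood below them. The tumor difference was 1.78 ± 0.62 (limma adjusted p = 0.673). Without dysplasia epithelium 2, which enters that comparison through the run term and the estimate of spread and is a library in which 3 dominant genes took 17.2% of the TPM, Rrm2 was called at 1.95 with an adjusted p of 0.0224.

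Mcm4, another helicase subunit, showed 0.67 ± 0.42, 1.02 ± 0.39 and 1.21 ± 0.42 in hyperplasia, dysplasia and tumor, with limma adjusted p-values of 1.00, 0.361 and 0.673. All 4 dysplasia libraries lay above the 3 normal ones. Mcm2, the helicase subunit often stained to count cycling cells, held 1.52, 2.48 and 2.40 in normal epithelium and 2.17, 2.65 and 2.28 in hyperplasia. It held 2.76, 3.00, 2.51 and 2.97 in dysplasia and 2.08, 3.37 and 3.23 in tumors. Dysplasia again lay wholly above normal, while tumor 1 fell among the normal libraries. Its difference was 0.70 ± 0.40 in dysplasia and 0.80 ± 0.44 in tumor. Mcm3 and Mcm6 differed by 1.07 ± 0.45 and 0.88 ± 0.42 between tumor and normal, and Mcm7 by 0.43 ± 0.49.

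Cdc45, part of the active helicase with MCM and GINS, differed by 0.52 ± 0.41 in hyperplasia and 0.73 ± 0.41 in tumor. Ccne1, a cyclin of S phase entry, differed by 0.73 ± 0.45 in tumor. For Gins2, E2f1, Cdt1, Rrm1, Cdc6 and Tyms the tumor difference ran from 0.09 to 0.33. Ccne2, the other E-type cyclin, was the only one of the 40 genes below 0 in tumor, at -0.12 ± 0.57. In dysplasia, E2f1, Tyms, Cdt1, Cdc6 and Ccne2 lay between -0.05 and -0.78, and Cdc6 and Ccne2 were at 0.05 and 0 in dysplasia 2.

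Almost every G2 and mitosis gene had a fitted difference above 0 at each lesion stage. Their median difference from normal was 0.83 in hyperplasia, 0.81 in dysplasia and 0.80 in tumor, with 23, 22 and 23 of the 23 above 0. The gene below 0 in dysplasia was Aurkb, the Aurora kinase of the chromosome passenger complex, which dysplasia epithelium 2 lists at 0. Birc5 (survivin), its partner in that complex, was separated from normal in hyperplasia, Ccna2, Ccnb2 and Foxm1 were in dysplasia, and Plk1 was in tumor.

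Cdc20, which activates the anaphase-promoting complex, had the smallest p of the mitotic genes at each stage. Its log2(TPM + 1) was 2.79, 3.88 and 2.58 in normal libraries 1 to 3 and 5.02, 2.85 and 4.12 in hyperplasia. Dysplasia libraries 1 to 4 had 4.08, 3.78, 4.17 and 4.68, and tumors 3.30, 4.75 and 4.20. Normal 2 reached into the range of each lesion stage, so the groups overlap. The difference was 1.17 ± 0.50 in hyperplasia, 1.23 ± 0.46 in dysplasia and 1.25 ± 0.50 in tumor (limma adjusted p-values of 1.00, 0.346 and 0.872).

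Mki67 encodes Ki-67, the protein most used to count cycling cells. Normal epithelium held 3.76, 4.36 and 3.16, and hyperplasia held 5.21, 3.47 and 4.46. In dysplasia it stood at 4.49, 3.49, 4.58 and 5.20 and in tumor at 3.95, 5.09 and 4.37. All 4 stages overlap, with a low library in each lesion stage. Its differences from normal were 0.83 ± 0.51, 0.78 ± 0.47 and 0.92 ± 0.51.

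Top2a had the highest mean TPM-scale level of the 40 genes in epithelium. It held 4.02, 5.28 and 4.42 in normal libraries and 5.97, 4.52 and 5.12 in hyperplasia. It held 5.41, 5.06, 5.41 and 6.03 in dysplasia and 4.70, 5.85 and 5.56 in tumors. Normal 1 and 3 were below every lesion library, and normal 2 was within their range. The differences were 0.80 ± 0.50, 0.99 ± 0.46 and 0.97 ± 0.50.

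Ccnb1, cyclin B1, was at 2.28, 4.11 and 3.56 in normal epithelium and 4.50, 3.50 and 4.43 in hyperplasia. It was at 4.27, 3.94, 4.36 and 4.76 in dysplasia and 3.27, 4.50 and 4.19 in tumors. The groups overlap through normal 2 and 3, and the differences were 0.90 ± 0.51, 1.06 ± 0.47 and 0.74 ± 0.51.
Cdk1, the kinase that cyclins A and B activate, was at 2.54, 4.26 and 3.68 in normal epithelium and 4.58, 3.46 and 4.68 in hyperplasia. Dysplasia had 4.47, 3.23, 4.50 and 4.88 and tumor 3.10, 5.40 and 4.73. Each lesion stage held a library within the normal range, and the differences were 0.82 ± 0.61, 0.81 ± 0.56 and 1.00 ± 0.61. Ccna2, cyclin A, which acts in S phase and G2, differed by 1.04 ± 0.45, 1.08 ± 0.41 and 1.11 ± 0.45, and Ccnb2 by 0.88 ± 0.44, 0.91 ± 0.40 and 0.85 ± 0.44.

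Plk1, a kinase needed for spindle poles and mitotic exit, held 0.90, 2.37 and 1.98 in normal epithelium and 3.86, 2.09 and 2.87 in hyperplasia. It held 2.94, 1.08, 3.01 and 3.32 in dysplasia and 2.56, 3.71 and 2.72 in tumors. The 3 tumors stood above the 3 normal libraries, whereas dysplasia 2 was near the lowest normal one. The differences were 1.26 ± 0.58, 0.87 ± 0.54 and 1.32 ± 0.58. Foxm1, a transcription factor of mitotic genes, differed by 1.01 ± 0.40 in dysplasia, and Birc5 by 1.06 ± 0.46 in tumor.

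The remaining mitotic genes had tumor differences between 0.24 and 1.10. The highest was Ube2c, the ubiquitin-conjugating enzyme that works with the anaphase-promoting complex. The checkpoint kinase gene Bub1b, the spindle kinesin gene Kif11 and the cytokinesis kinesin gene Kif20a stood at 0.91, 0.90 and 0.80. Cenpe, Aurka and Aurkb stood at 0.66, 0.55 and 0.47. The lowest 6, Tpx2, Prc1, Cenpf, Bub1, Nusap1 and Kif23, most of them spindle proteins, were between 0.24 and 0.35.

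Ccnd1, cyclin D1, links growth signals to G1 exit and was the only G1 gene with a row. Normal epithelium had 4.50, 5.35 and 4.36, and hyperplasia 4.76, 3.91 and 5.27. Dysplasia had 3.75, 3.81, 5.24 and 4.25, and tumor 4.00, 5.47 and 5.21. The stages overlap, and the differences from normal were -0.02 ± 0.54, -0.44 ± 0.50 and 0.23 ± 0.54.

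**Figure D3:**
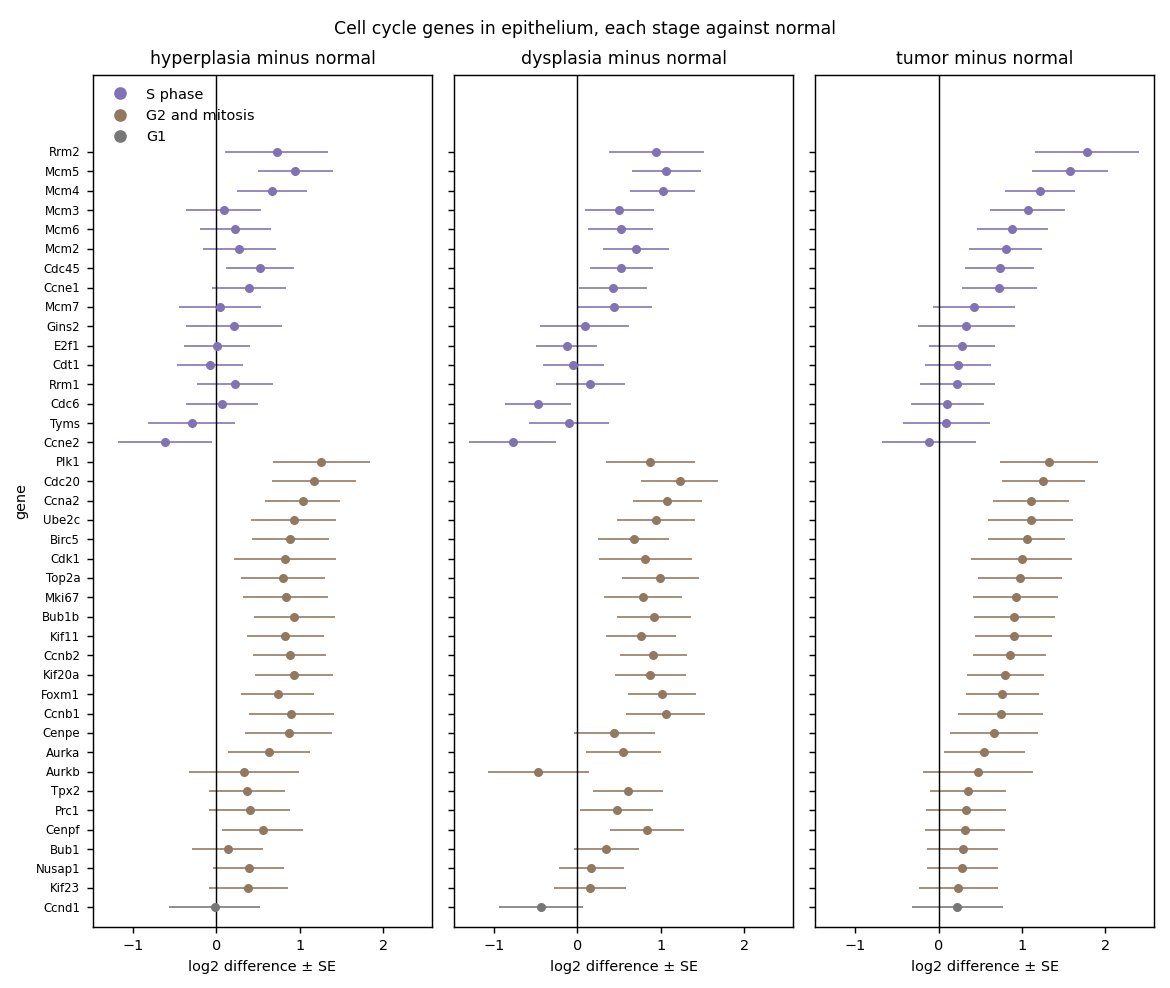
Points give the fitted log2 difference from normal epithelium with its SE (horizontal bars) for each of the 40 genes in hyperplasia, dysplasia and tumor, ordered by the tumor value within each group of genes. All 23 G2 and mitosis genes lie above 0 in hyperplasia and in tumor, and the S phase genes reach from -0.12 to 1.78 in tumor.

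Between lesion stages of the epithelium the median differences were closer to 0. From hyperplasia to dysplasia the median difference was 0.02 over the 40 genes, with 22 above 0 where 41.0% of all genes were, and -0.01 over the mitotic genes. From dysplasia to tumor it was 0.15, with 28 above 0 where 51.4% of all genes were, and 0.29 over the S phase genes, of which 15 of 16 were above 0, against 0.03 over the mitotic genes, of which 12 of 23 were. That median of 0.15 was -0.081 without tumor epithelium 2, 0.35 without tumor epithelium 1, and -0.11 with age as a covariate, where 19 of 40 genes were above 0 and all genes had -0.15. limma called 0 of the 40 and 0.00% of all genes in both comparisons, and 0 of the 40 had an unadjusted p under 0.05. The smallest p-values from dysplasia to tumor belonged to Aurkb at 0.94 ± 0.60, Rrm2 at 0.83 ± 0.57 and Cdc6 at 0.58 ± 0.40, then Mcm3 at 0.56 ± 0.41, Cenpf at -0.51 ± 0.44 and Birc5 at 0.38 ± 0.42. From hyperplasia to dysplasia they belonged to Cdc6 at -0.54 ± 0.40, Aurkb at -0.80 ± 0.60, Mcm2 at 0.43 ± 0.40, Mcm3 at 0.41 ± 0.41, Cenpe at -0.42 ± 0.48 and Plk1 at -0.39 ± 0.54.

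A few libraries held many of the highest and lowest values. Tumor epithelium 2 held the highest epithelial value for 17 of the 40 genes and 1 of the 3 highest for 34, and normal epithelium 1 held the lowest for 22. Their median log2(TPM + 1) over all genes was 3.05 and 2.39, where the epithelium libraries ran from 2.39 to 3.20. Their TPM totals over the rows given were 551121 and 301094. Normal epithelium 1 and dysplasia epithelium 2, the only epithelium libraries from mice of 16 weeks, had S phase means of 2.18 and 2.17, below the 2.50 to 3.51 of the other 11. Without tumor epithelium 2 the median tumor difference was 0.36, and without normal epithelium 1 the median hyperplasia difference was 0.30. With age as a covariate the tumor median was 0.34, with 28 of 40 genes above 0 and a median of -0.25 over all genes, and normal and tumor ages do not overlap. Within sequencing run 1 (2 tumors and 1 normal library) the tumor median was 0.25 with 31 genes above 0, and within run 2 (1 tumor and 2 normal libraries) it was 1.10 with 40 above 0, where all genes had medians of -0.18 and 0.32. In run 1 and run 2 the hyperplasia medians were 0.29 and 0.91 and the dysplasia medians 0.51 and 0.56.

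The mitotic genes also stood lower in the 3 epithelium libraries of highest background, which are normal 3, hyperplasia 2 and tumor 1. In these, 23 of the 23 mitotic genes had a lower mean than in the other 10 libraries, by a median of 0.69, and for 17 of them all 3 libraries were among the lowest 5 of 13. Of the 16 S phase genes, 9 had a higher mean in them, with a median difference of 0.05. Tyms, thymidylate synthase, had its 3 highest epithelial values there, 5.67, 5.63 and 5.20, and stood 1.22 above its mean in the others. How many of all genes stood lower in these libraries was not counted, so the lower values are not shown to be particular to mitotic genes. Genes at large also differed there: 25, 27 and 16 genes were listed at 0 in normal 3, tumor 1 and hyperplasia 2. The other epithelium libraries listed 120 to 2348 genes at 0. All 3 libraries of highest background came from sequencing run 1. Their basal keratinocyte marker means, 5.79, 5.47 and 5.31, were the lowest of the 13, and their skeletal muscle marker means were 5.92, 1.96 and 5.09. Normal, hyperplasia and tumor each hold 1 of these libraries and dysplasia none. The part of the background in the stage differences was not tested, nor was that of run or cell content in the lower mitotic values. Without these 3 libraries, an alternative chosen after the data were seen, the member medians were 0.84 in hyperplasia, 0.72 in dysplasia and 1.06 in tumor, and limma again called 0 of the 40. With the background mean of each library as a covariate, also chosen after the data were seen, the medians were 0.44, 0.47 and 0.60, with 0 called.

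**Figure D4:**
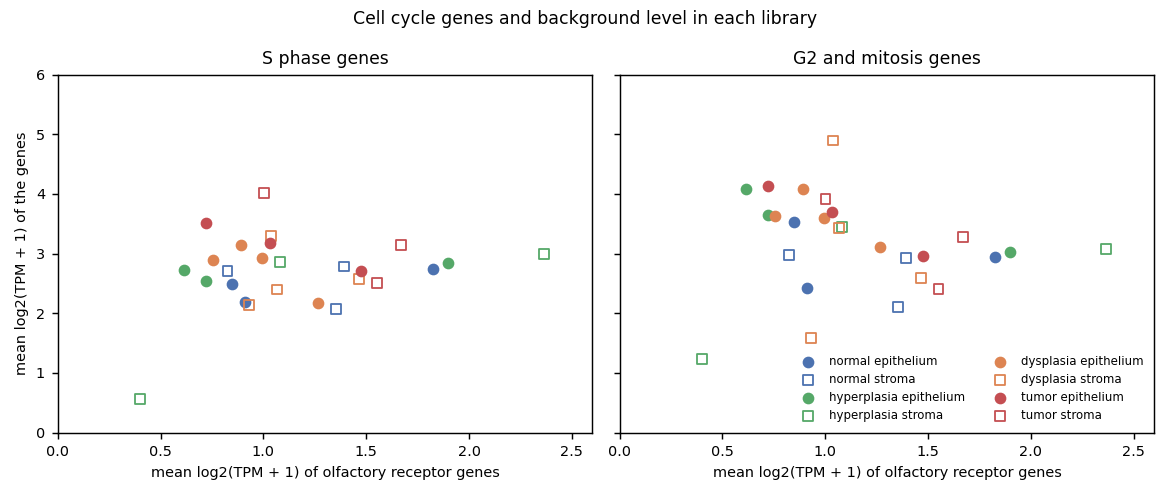
Each point is a library, with the mean log2(TPM + 1) of 156 olfactory receptor genes on the x axis and that of the 16 S phase genes (left) or 23 G2 and mitosis genes (right) on the y axis. Epithelium libraries are filled circles and stroma libraries open squares, coloured by stage. The 3 epithelium libraries at 1.47 to 1.90 on the x axis have mitotic means of 2.94 to 3.02, in the lower part of the epithelium range.

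In stroma no cell cycle gene passed the test either, and libraries of 1 stage spread more widely than in epithelium: the pooled SD of the mean over the 40 genes within stages was 0.927, against 0.409. The median difference of the 40 genes from normal was -0.43 in hyperplasia, 0.21 in dysplasia and 0.33 in tumor, with 11, 26 and 32 above 0 (18.0%, 45.9% and 46.5% of all genes), and the medians over all 14883 genes were -0.72, -0.06 and -0.05. limma called 0 of the 40 in each, against 0.00672%, 0.0403% and 0.0806% of all genes, and 0 of the 40 had an unadjusted p under 0.05 in any of the 3. The F test called 0 of the 40 and 0.195% of all genes, with 0 of the 40 and 4.80% of all genes at an unadjusted p under 0.05. The 3 tumors lay above the 3 normal libraries for Rrm1, Rrm2, Ccne1 and Top2a, where 4.98% of all genes did so. Between lesion stages, limma called 0 of the 40 from hyperplasia to dysplasia (0.00% of all genes) and from dysplasia to tumor (0.141% of all genes), and in each 1 of the 40 was higher at an unadjusted p under 0.05, where 7.04% and 2.38% of all genes were. These were Kif23 at 2.08 ± 0.94 and Cdt1 at 1.77 ± 0.87.

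The stroma values of single genes show that spread. Mki67 was at 4.05, 2.02 and 3.55 in normal stroma and 2.34, 2.93 and 5.24 in hyperplasia. It was at 2.42, 4.85, 5.89 and 3.07 in dysplasia and 2.55, 5.13 and 3.95 in tumors. Dysplasia alone spans more than all normal libraries do, from 2.42 to 5.89. Top2a was at 4.24, 3.48 and 3.70 in normal stroma and 5.41, 4.40 and 5.36 in hyperplasia. It was at 2.84, 4.95, 6.49 and 4.10 in dysplasia and 4.49, 5.81 and 4.999 in tumors, and its hyperplasia and tumor libraries all lay above the normal ones (in hyperplasia, 1.10% of all genes did). The Top2a difference from normal was 1.25 ± 0.98 in hyperplasia and 1.29 ± 0.98 in tumor.

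Mcm2 stood at 3.70, 1.48 and 3.47 in normal stroma and 1.90, 3.30 and 3.85 in hyperplasia. It stood at 2.99, 3.23, 4.38 and 2.24 in dysplasia and 3.21, 4.17 and 3.25 in tumors. All stages overlap for this helicase gene. Ccnb1 stood at 3.21, 2.03 and 3.21 in normal and 3.13, 3.92 and 4.55 in hyperplasia stroma. Its dysplasia values were 0, 3.92, 4.92 and 2.70 and its tumor values 2.00, 3.99 and 3.56. Dysplasia stroma thus ran from 0 to the highest value of this cyclin in any stroma library. Cdk1 was 2.43, 2.13 and 3.72 in normal and 0.41, 3.29 and 3.56 in hyperplasia stroma. Dysplasia had 1.11, 6.23, 5.03 and 2.96, and tumor 3.06, 5.06 and 4.19. The kinase again had its extremes in hyperplasia and dysplasia. Ccnd1 was 5.34, 3.69 and 4.99 in normal and 3.16, 2.89 and 4.70 in hyperplasia stroma. Dysplasia had 3.44, 4.84, 5.74 and 3.62, and tumor 3.57, 5.55 and 4.79. Normal stroma alone covers most of that range.

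The S phase genes with the smallest p in stroma were Tyms at -1.46 ± 1.00, Ccne2 at -1.43 ± 1.02 and Gins2 at -1.06 ± 0.85 in hyperplasia. In dysplasia they were Ccne2 at -0.90 ± 0.93, Mcm7 at 0.76 ± 0.92 and Rrm2 at 0.74 ± 0.92, and in tumor Rrm2 at 1.45 ± 1.00, Gins2 at 1.22 ± 0.85 and Cdc6 at 1.05 ± 0.75. Of the mitotic genes, Plk1 at -1.25 ± 0.85 and Kif23 at -1.39 ± 1.02 came first in hyperplasia. Kif20a at 1.00 ± 0.81, Cdk1 at 1.03 ± 0.95 and Foxm1 at 0.85 ± 0.87 did so in dysplasia, and Top2a, Cdk1 at 1.26 ± 1.04 and Cdc20 at 1.15 ± 0.99 in tumor. Each of these 3 comparisons has SEs between 0.75 and 1.04 for the genes named.

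Between lesion stages the median of the 40 was 0.64 from hyperplasia to dysplasia, with 32 above 0 where 78.0% of all genes were, and 0.26 from dysplasia to tumor, with 26 above 0 where 51.2% were. From hyperplasia to dysplasia the smallest p-values after Kif23 belonged to Mcm7 at 1.42 ± 0.92, Gins2 at 1.07 ± 0.78 and Mcm4 at 1.19 ± 0.88 in S phase and to Ube2c at 1.56 ± 0.94 and Foxm1 at 1.41 ± 0.87 in mitosis. From dysplasia to tumor they belonged, after Cdt1, to Cdc6 at 1.37 ± 0.69 and Gins2 at 1.20 ± 0.78, and in mitosis to Prc1 at 1.01 ± 0.90, Bub1b at -0.79 ± 0.91 and Kif23 at -0.68 ± 0.94. Ccnd1 differed from normal stroma by -0.99 ± 0.97, -0.21 ± 0.89 and 0.07 ± 0.97 in hyperplasia, dysplasia and tumor.

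Single stroma libraries turned the sign of each median. Dysplasia stroma 3 held the highest stroma value for 21 of the 40 genes, and hyperplasia stroma 1 the lowest for 26. Genes at large went the same way: the median log2(TPM + 1) over all genes was highest in dysplasia stroma 3, at 3.68. It was lowest in hyperplasia stroma 1, at 0. Without normal stroma 1, hyperplasia stroma 1 and dysplasia stroma 2, in which 3 genes took much of the TPM, the hyperplasia median was 0.59, as it was without hyperplasia stroma 1 alone. Without normal stroma 2 the dysplasia median was -0.41, and without tumor stroma 2 the tumor median was -0.36. The stroma libraries with the highest means of the 40 genes were dysplasia 3 at 4.28 and tumor 2 at 4.00. They also had the highest basal keratinocyte marker means of any stroma library, 6.70 and 6.63 over 11 markers. Their medians over all genes, 3.68 and 3.53, were likewise the highest in stroma. Differentiated keratinocyte markers averaged 4.22 and 6.81 in them, where stroma libraries ran from 1.58 to 6.81. Whether epithelial RNA adds to the cell cycle values of these libraries was not tested. Within run 1 the stroma medians were 0.92 in hyperplasia, 1.41 in dysplasia and 0.76 in tumor, where all genes had 0.22, 0.38 and -0.09. Within run 2 they were -2.23, -0.50 and 0.93, where all genes had -2.01, -0.26 and 0.68.

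Epithelium was compared with stroma within 13 pairs of libraries that share a code number, age and run. Averaged over the 4 stages, the median difference was 0.56 for the mitotic genes, with 21 of 23 above 0, and 0.13 for the S phase genes, with 11 of 16 above 0, and all 15499 genes had a median of 0.16 with 59.9% above 0. limma called 1 of the 40, Plk1, against 29.5% of all genes. At an unadjusted p under 0.05, 6 of the 40 were higher in epithelium and 0 lower, where 26.3% of all genes were higher. Rescaling the libraries without the 3 dominant genes moved the median of all genes from 0.16 to -0.13 and that of the 40 from 0.42 to 0.09.

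Plk1 was higher in epithelium by 0.96 ± 0.34 (limma adjusted p = 0.0387), in 11 of 13 pairs. In hyperplasia, where 15.8% of all genes were called, it was again the only call (3 of the 40 and 27.6% of all genes were higher at an unadjusted p under 0.05), at 2.20 ± 0.71 (adjusted p = 0.0385). Its stroma values were 2.93, 0.87 and 1.84 in normal and 0, 1.92 and 0.30 in hyperplasia. They were 1.22, 0, 3.88 and 1.39 in dysplasia and 1.43, 2.97 and 2.20 in tumor. Hyperplasia stroma 1 and dysplasia stroma 2, both listed at 0, are among the libraries that 3 genes dominate. Without those 3 libraries and their pairs the hyperplasia difference was 1.37 with an adjusted p of 0.214, so the call was lost without them. It was also lost with quantile normalization, at 1.58 (adjusted p = 0.0518), and with median centring, at 1.27 (0.115). With rescaling without the dominant genes the difference was 2.52 (0.121), and without pairing it was 2.20 (0.0714), no smaller than in the paired fit, but the call was lost. The call on the mean was lost with an added 0.1 in place of 1 on the log scale (adjusted p = 0.0578), with rescaling (0.165), without pairing (0.0649), and without the 3 epithelium libraries of highest background (0.0587). Leaving out 1 pair at a time lost the call in 9 of 13 fits, with adjusted p-values up to 0.111 and differences from 0.75 to 1.21.

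After Plk1, the smallest p-values on the mean belonged to Aurka, the spindle pole Aurora kinase, at 0.77 ± 0.32 (adjusted p = 0.0781) and Ccnb2 at 0.80 ± 0.34 (0.0819), both higher in 10 of 13 pairs. Among the S phase genes they belonged to Mcm5 at 0.76 ± 0.33 (0.0855, 10 of 13 pairs), Mcm2 at -0.61 ± 0.31 (0.141) and Ccne1 at 0.36 ± 0.26 (0.321). Mcm2 was the gene farthest on the stroma side, higher in epithelium in only 3 of 13 pairs. It was called there, between -0.76 and -1.15, under quantile normalization, median centring and rescaling without the dominant genes.

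By stage, limma called 0 of the 40 between epithelium and stroma in normal tissue (3.06% of all genes), dysplasia (9.05%) and tumor (0.00645%), where 0, 3 and 0 of the 40 had an unadjusted p under 0.05. The 3 in dysplasia, where 10.5% of all genes were higher at that p, were Prc1 at 1.17 ± 0.51, Ccnb1 at 1.45 ± 0.66 and Ccnb2 at 1.28 ± 0.61. Median differences of the 40 were 0.16 in normal tissue, 0.85 in hyperplasia, 0.34 in dysplasia and 0.33 in tumor, where all genes had 0.10, 0.58, 0.07 and -0.01. Leaving out 1 pair at a time gave -0.18 to 0.52 in normal tissue, -0.083 to 1.40 in hyperplasia, -0.15 to 0.76 in dysplasia and 0.23 to 0.37 in tumor, and the sign turned in the first 3. Rescaling without the dominant genes gave -0.060 in tumor. With median centring the hyperplasia median was -0.072, where all genes had -0.34. The other leading values in hyperplasia were Ube2c at 1.80 ± 0.83, Cdk1 at 1.82 ± 0.87, Mcm5 at 1.28 ± 0.67, Mcm7 at 1.17 ± 0.72 and Gins2 at 1.10 ± 0.73. In dysplasia the S phase genes were led by Mcm5 at 0.99 ± 0.58, Cdt1 at 0.79 ± 0.57 and Ccne1 at 0.45 ± 0.47. In normal tissue Mcm4 at -0.88 ± 0.62, Mcm2 at -0.76 ± 0.64 and Mcm7 at 0.57 ± 0.72 led the S phase genes, and Top2a at 0.77 ± 0.63, Tpx2 at 0.89 ± 0.84 and Aurka at 0.61 ± 0.67 the mitotic ones. In tumor Gins2 at -1.05 ± 0.73, Mcm3 at 0.97 ± 0.69 and Cdc6 at -0.52 ± 0.50 led in S phase, and Plk1 at 0.80 ± 0.71, Ccnb1 at 0.81 ± 0.76 and Kif11 at 0.69 ± 0.69 in mitosis. Ccnd1 stood at 0.06 ± 0.53 in normal tissue, 1.06 ± 0.53 in hyperplasia, -0.15 ± 0.46 in dysplasia and 0.26 ± 0.53 in tumor.

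The change from normal to tumor was compared between compartments directly. The median of that difference over the 40 genes was 0.05, with 21 above 0 where 44.3% of all genes were, and limma called 0 of the 40 and 0.00% of all genes, with 0 of the 40 at an unadjusted p under 0.05. The largest by p were Mcm4 at 1.02 ± 0.88, Mcm3 at 1.00 ± 0.98 and Cdc6 at -0.67 ± 0.71 among S phase genes, and Plk1 at 0.93 ± 1.00, Cenpe at 0.74 ± 1.07 and Ccnb2 at 0.57 ± 1.00 among mitotic ones. With such SEs, differences of this size between compartments were not detectable with these libraries.

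**Figure D5:**
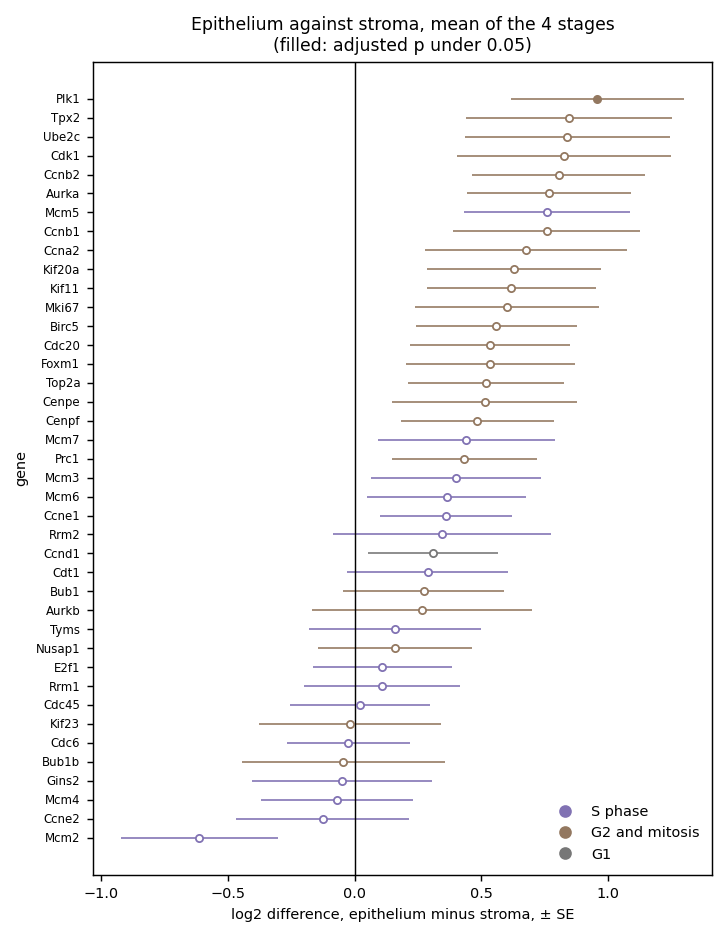
Points give the log2 difference between epithelium and stroma, averaged over the 4 stages from 13 pairs of libraries, with its SE for each of the 40 genes, ordered by value. Plk1, at 0.96, is the only filled point (adjusted p under 0.05), and Mcm2, at -0.61, is the lowest.

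Other genes of the pathway, in lists that do not overlap the 40, were also tested. Of 50 further replication genes, 74 further mitosis genes and 32 G1 regulators and inhibitors tested, limma called 0 at any stage of either compartment, against 0.00% to 0.467% of all genes. In tumor against normal epithelium their medians were 0.35, 0.56 and 0.13, with 43, 71 and 18 above 0, against 51.6% of all genes. The 18 of 32 G1 genes (56.25%) are near that share. At an unadjusted p under 0.05, 4, 7 and 3 of them were higher there, against 2.76% of all genes, and 0, 0 and 1 lower. In hyperplasia the medians were 0.20, 0.53 and 0.13 and in dysplasia 0.11, 0.41 and 0.15.

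Between epithelium and stroma, on the mean of the 4 stages, 8 of the 32 G1 regulators were called higher in epithelium and 2 lower, where 29.5% of all genes were called, so the count is near that of genes at large. Cdkn2b, an inhibitor of the cyclin D kinases, was 2.12 ± 0.28 higher (limma adjusted p = 5.10e-06), and Cdkn1a (p21), an inhibitor of cyclin-dependent kinases that p53 induces, 1.96 ± 0.25 (4.63e-06). Tob1 and Btg1, of a family of antiproliferative proteins, differed by 2.12 ± 0.33 and 1.15 ± 0.26, and Myc, a transcription factor of growth, by 1.51 ± 0.32. The 2 genes on the stroma side were Ccnd3, a D-type cyclin, at -1.04 ± 0.26, and Cdkn1c. Cdkn1c, also an inhibitor of cyclin-dependent kinases, stood at -1.46 ± 0.39 (limma adjusted p = 0.00701). Cdkn1a, Cdkn2b, Tob1 and Myc were also called in hyperplasia and in dysplasia, and Btg1, Btg2 and Lin54 in hyperplasia, where 15.8% and 9.05% of all genes were called in hyperplasia and dysplasia.

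Of the further replication genes, 3 of 50 were called higher in epithelium on the mean, where 29.5% of all genes were called in either direction: Chaf1a, a subunit of the histone chaperone of replication, at 1.03 ± 0.28, the primase gene Prim1 at 1.05 ± 0.32, and the GINS subunit gene Gins3 at 0.87 ± 0.30. Chaf1a and Prim1 were called in hyperplasia too, where 15.8% of all genes were. Of the further mitosis genes, 5 of 74 were called higher on the mean, against the same 29.5% of all genes: Ube2s, Trip13, Depdc1a, Cks2 and Ccnf, by 0.81 to 1.04. No gene of these 2 lists was called on the stroma side.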

How the data were processed

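RNA was sequenced from 26 laser-microdissected mouse tongue libraries. The authors deposited 1 table of log2 expression values, log2(TPM + 1), which holds 18676 rows. The submitters' processing notes name STAR 2.5.1b and Salmon 0.9.1, HTSeq 0.10.0, Trimmomatic 0.36, FastQC 0.11.5, SAMtools 1.6 and bcl2fastq 2.20, and the build GRCm38.p6, with no role or order. TPM keeps no depth, so no counting interval is given. Rows without an identifier of their own were left out, which kept 16397, and 0 columns were left unused.

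Stages were compared within a compartment with limma 3.58.1 in R 4.3.3 (lmFit with stage and sequencing run, eBayes with a trend), on genes that reached a TPM of 1 in 3 or more libraries. Compartments were compared on the differences within 13 pairs of libraries. P-values are two-sided, with Benjamini-Hochberg adjustment across every gene of a fit and a threshold of 0.05. The code was tested on simulated data. The members and gene lists were chosen with earlier results of these data known. Every member past the threshold was named, and otherwise the 3 with the smallest p in each role, and library values were written out for a fixed set of members. Alternatives changed the added constant, the filter, the rows, the scaling, the run and age terms and the replicate block, and left out each library. Leaving out the 3 epithelium libraries of highest background, and the background level as a covariate, were chosen after seeing the data.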

Additional observations from a re-analysis of the deposited data

Results flagged for a closer look

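In dysplasia, the only stage with 4 libraries a compartment, Dixon's test was applied to 86 sets of values, and 8 held a library far from the other 3. Chance flags about 1 in 20 such sets, but these sets share the same libraries and are not independent, so the count is not tested against that rate.

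Of these, 5 were low values in dysplasia epithelium 2, the library from a mouse of 16 weeks in which Lars2, March6 and D17H6S53E took 17.2% of the TPM. Mcm5 was at 2.75 there and at 3.57 to 3.73 in the other dysplasia libraries. Rrm2 was at 1.10 against 3.70 to 4.14, and Plk1 at 1.08 against 2.94 to 3.32. Ccne2 was at 0 against 2.64 to 2.94, and Cdc6 at 0.0452 against 1.07 to 1.28.

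Dysplasia epithelium 4 was high for 2 mitotic genes. Ccna2 was at 4.53 there against 4.07 to 4.13, and Kif23 at 4.94 against 4.26 to 4.37. In stroma, Cdt1 was listed at 0 in dysplasia stroma 3 and at 2.23 to 2.46 in the other 3.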

How the results depend on the processing

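In epithelium the median difference of the 40 genes from normal stayed above 0 in each of 25 alternatives per lesion stage. Leaving out single libraries gave 0.30 to 0.75 in hyperplasia, 0.38 to 0.82 in dysplasia and 0.36 to 0.94 in tumor. Rescaling to the same TPM total without the dominant genes moved the medians of all genes to -0.25, -0.20 and -0.14 and those of the 40 to 0.29, 0.52 and 0.69. The part of the equal totals in this was not separated from that of leaving out the genes. Members called ranged from 0 to 1 in dysplasia, in tumor and over the 4 stages, the call coming without dysplasia epithelium 2.

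The stroma hyperplasia median was 0.66 with median centring and 0.59 without the 3 libraries that stand apart, and -1.01 to 0.59 without single libraries. That from hyperplasia to dysplasia was -0.39 with median centring and -0.31 to 1.03 without single libraries.

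Between epithelium and stroma, calls in hyperplasia went from 1 to 0 with quantile normalization, with rescaling, without the replicate block and without the 3 libraries that stand apart, and ranged from 0 to 3 without single pairs. Calls in dysplasia went from 0 to 2 without those 3. Calls on the mean of the 4 stages went from 1 to 0 with a constant of 0.1, without the replicate block and without the 3 libraries of highest background, to 4 with quantile normalization, to 2 with median centring and to 3 without the 3 that stand apart, and ranged from 0 to 5 without single pairs. The cause was not tested.

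Single genes kept their direction and side of the threshold in 2595 values, were weaker in 23, stronger in 17 and reversed in 21. With median centring, stroma hyperplasia Gins2 was 0.035. Without the 3 libraries that stand apart, stroma hyperplasia Tyms was 0.32 and Kif23 0.47, stroma dysplasia Ccne2 0.10, Mcm7 -0.63 and Ube2c -0.32 from hyperplasia to dysplasia, epithelium against stroma Mcm7 -0.0253 in hyperplasia, and the tumor change of Plk1 -0.0215. With rescaling, Ccne1 between compartments was -0.068. Without single libraries, epithelium Plk1 from hyperplasia to dysplasia ranged from -0.77 to 0.17. In stroma the ranges were -2.51 to 0.41 for Tyms and -2.11 to 0.63 for Kif23 in hyperplasia, -0.025 to 2.11 for Cdk1 in dysplasia and -0.51 to 2.01 for Gins2 in tumor. From hyperplasia to dysplasia they were -0.31 to 2.23 for Mcm7 and -0.032 to 2.43 for Ube2c, and from dysplasia to tumor -1.79 to 0.043 for Bub1b and -0.37 to 2.14 for Gins2. Between compartments they were -0.03 to 1.84 for Mcm7 in hyperplasia and -0.02 to 1.55 for the tumor change of Plk1.

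Pairs share a code number, age and run, and 7 of 13 had deviations correlated over 0.1. Title numbers were not shown to pair the samples: 6 of 18 epithelium and 4 of 18 stroma combinations were over 0.1. With the replicate block by title number the tumor epithelium median was 0.74 with 0 members called, and calls over all genes were 5, 17 and 5 in hyperplasia, dysplasia and tumor, against 5, 66 and 7. With 3 or 4 libraries a stage and unknown depth, a gene missing the threshold is not shown to be equal between stages.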
